A study of Mus musculus with 5 samples.

Results

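The genes described here are 10 genes of the G1 phase of the cell cycle: the D-type cyclins Ccnd1, Ccnd2 and Ccnd3, the E-type cyclins Ccne1 and Ccne2, the kinases Cdk4 and Cdk6, the inhibitor Cdkn1b, and Rb1 and E2f1. They are taken by gene symbol, a rule that holds no measured value, from a choice made with earlier results of these data known. All 10 were found among the 29267 genes of the deposited tables and passed a mean of 1 CPM. RNA was sequenced from mouse embryonic fibroblasts (MEF, primary cells of the embryo) of the ICR strain while they were being reprogrammed, with factors that the labels do not name. At day 4 there was a library of cells expressing Flag, an epitope tag that served as the control, and a library of cells expressing CypD (cyclophilin D, encoded by Ppif, a regulator of the mitochondrial permeability pore). At day 8 there were libraries of untreated control cells, of cells given mastoparan (a peptide of wasp venom), and of cells given paraquat (a herbicide that generates superoxide by redox cycling), at doses the labels do not state. The series title names the mitoflash, a brief burst of signal in a mitochondrion, as what the genes are studied for.

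A cell leaves G1 when growth signals raise the D-type cyclins, which activate Cdk4 and Cdk6. These kinases begin to phosphorylate the retinoblastoma protein Rb1, and cyclin E with Cdk2 completes it, which releases E2f factors bound to their DP partners. E2f factors then turn on genes of DNA replication, cyclin E and E2f1 among them, while Cdkn1b (p27) binds and restrains cyclin E-Cdk2. In fibroblasts this circuit sets whether a cell proliferates or rests.

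Each group held 1 library, so there is no replicate check of any difference and no p-value is given. The libraries held between 2426015 and 3426702 expected counts. CPM below means counts per 1000000 of the library after scaling by TMM factors, and the intervals are exact 95% intervals that cover counting error only. Ppif checked the labels: it stood at 44.2 CPM in the Flag library, 761.3 CPM in the CypD library, and 29.19, 33.33 and 34.23 CPM in the control, mastoparan and paraquat libraries. The genotype label of the 3 day-8 libraries also reads as expressing CypD, while the design text and the Ppif level do not show it, so they are named here by treatment alone. All 10 fibroblast markers were above a floor of 3 counts in every library, with sums of 6894 to 6939 CPM at day 4 and 6325 to 6536 CPM at day 8. The sum of 8 epithelial markers was 192.3 to 208.0 CPM at day 4 and 657.9 to 758.2 CPM at day 8, with 5 of 8 above the floor in every library. Of 8 pluripotency markers 1 was above it in every library, with sums of 3.765 to 5.13 CPM and 7.798 to 10.38 CPM, and Lin28a and Dppa3 were at 0. Of 8 macrophage markers 2 were, with sums of 7.892 to 10.42 CPM and 17.9 to 21.73 CPM and Adgre1 at 0. Of 6 endothelial markers 1 was, with sums of 52.48 to 55.89 CPM and 48.96 to 60.7 CPM and Cdh5 and Emcn at 0.

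The stretch just before the start is shown for the 4 genes with a window that lay mostly before every annotated transcript of the gene. Their levels did not enter this choice. Cdk4 and Ccne1 had lower levels at day 8 and Ccnd3 and Cdkn1b higher ones, and a link of the letters to these levels was not tested. The windows are RefSeq sequence of GRCm38.p6, up to 250 bases that end at the annotated start, cut where a transcript begins, and capitals mark the letters CACGTG, the E-box that Myc and its relatives bind. Of the 10 genes 6 had a window in the table.
Cdk4 at chr10:127063285-127063533, plus strand: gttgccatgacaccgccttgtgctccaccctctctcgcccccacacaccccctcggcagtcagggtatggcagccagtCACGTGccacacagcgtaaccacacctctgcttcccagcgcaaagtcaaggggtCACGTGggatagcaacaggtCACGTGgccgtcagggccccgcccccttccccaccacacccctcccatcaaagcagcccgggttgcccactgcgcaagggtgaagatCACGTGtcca
Ccnd3 at chr17:47504801-47505050, plus strand: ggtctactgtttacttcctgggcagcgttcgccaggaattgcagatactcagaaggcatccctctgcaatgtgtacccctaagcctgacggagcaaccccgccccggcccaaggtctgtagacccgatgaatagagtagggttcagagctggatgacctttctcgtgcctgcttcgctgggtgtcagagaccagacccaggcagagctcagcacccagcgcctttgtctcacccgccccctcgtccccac
Cdkn1b at chr6:134920151-134920400, plus strand: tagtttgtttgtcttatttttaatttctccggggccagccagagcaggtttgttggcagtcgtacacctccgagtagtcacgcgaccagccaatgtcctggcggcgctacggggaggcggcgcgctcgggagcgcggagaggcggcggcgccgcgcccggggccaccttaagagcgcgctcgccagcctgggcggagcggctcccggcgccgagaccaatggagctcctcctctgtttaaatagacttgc
Ccne1 at chr7:38107535-38107740, minus strand: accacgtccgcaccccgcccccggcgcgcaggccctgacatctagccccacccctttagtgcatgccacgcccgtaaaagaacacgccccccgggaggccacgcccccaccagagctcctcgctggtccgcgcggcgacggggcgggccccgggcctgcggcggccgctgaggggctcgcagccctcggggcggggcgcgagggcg
The Cdk4 window held 4 copies of CACGTG, which reads the same on both strands. At least 1 copy was found in 6.02% of the 32851 mouse windows of 250 bases, and at least 4 in 0.0213%, which is 7 windows. The Cdk6 window held 1 copy, and those of Ccnd3, Cdkn1b, Ccne1 and E2f1 held none. The windows of Cdk6 and E2f1 lay past the start of an annotated transcript of the gene, with 0 bases before it. Their letters therefore do not describe the stretch before that start. The E2F letters TTTGGCGC, TTTCGCGC and TTTCCCGC, searched on both strands and found in 1.53% of all windows, were in none of the 6. A match is a description of letters and not a bound site. Myc itself, named after its values were seen, stood at 1359, 1117, 1443, 1373 and 826.6 CPM in the Flag, CypD, control, mastoparan and paraquat libraries, so that its levels at days 4 and 8 overlapped.

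Levels between genes are compared per transcript length, as deposited TPM, an abundance per transcript length that has the same sum in every library. Averaged over the 5 libraries, Cdk4 led with 1147 TPM. Ccnd1 followed with 212.6 TPM and Ccnd3 with 209.6 TPM, then Ccnd2 with 84.41 TPM. Rb1 averaged 50.16 TPM, Ccne1 43.73 TPM, Cdkn1b 28.08 TPM and E2f1 21.14 TPM. Ccne2 with 7.394 TPM and Cdk6 with 5.674 TPM were the lowest, and between 17 and 60 reads lay behind each of their values. Cdk4 held between 99.2% and 99.8% of the summed TPM of both kinases. Across the 5 libraries the ratio of the highest to the lowest CPM was 3.21 for Ccne2, 2.32 for Cdk6, 2.03 for Ccnd2, 1.78 for Ccne1, 1.56 for Cdk4 and 1.52 for Ccnd1. It was 1.42 for Cdkn1b, 1.4 for Ccnd3, 1.37 for Rb1 and 1.31 for E2f1.

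**Figure D1:**
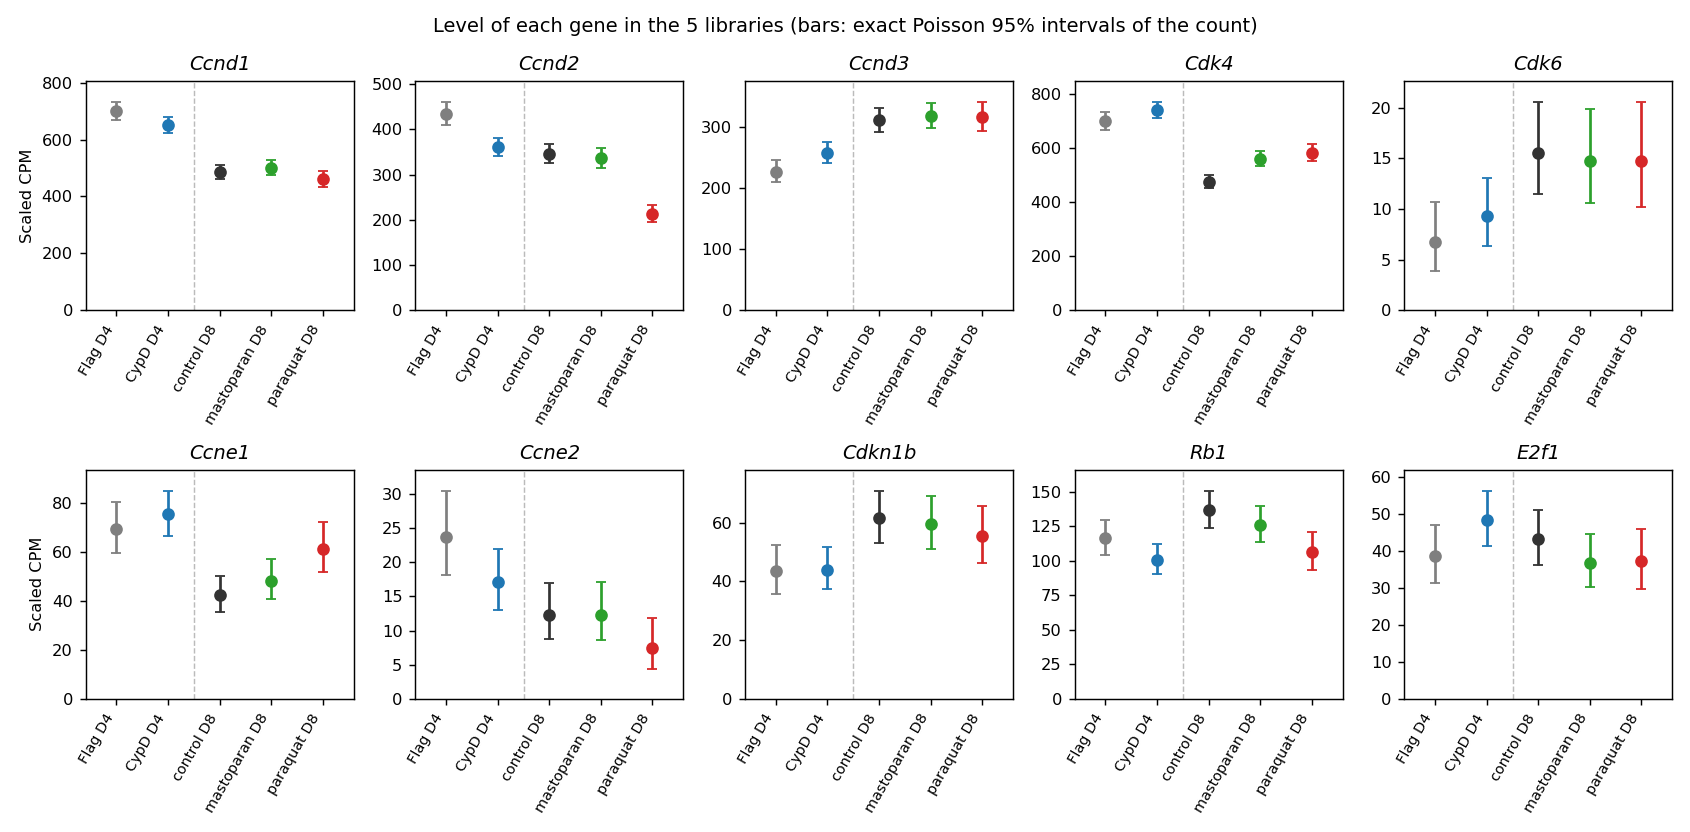
Level of each of the 10 genes in the 5 libraries, in scaled CPM on axes that start at 0; a point is 1 library, a bar the exact Poisson 95% interval of its count, and the dashed line parts day 4 from day 8. Ccnd1 and Cdk4 sit lower in all 3 day-8 libraries, Ccnd3 and Cdk6 higher, and Ccnd2 is lowest with paraquat at 213.6 CPM.

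Ccnd1 (ENSMUSG00000070348, chr7:144929931-144939925, minus strand, mm10), the cyclin that growth factors induce, stood at 700.1 CPM in the Flag library, 650.7 in CypD, 486.8 in the control, 501.8 with mastoparan and 461.0 with paraquat. Both day-4 libraries were above all 3 day-8 libraries, and each of the 6 pairs across days had an interval that left out no difference. The Flag library was 1.52 times (1.41 to 1.64) the paraquat library. Within day 8 the levels were close, and control and mastoparan (1.03-fold, 0.958 to 1.11) and control and paraquat (1.06-fold, 0.976 to 1.14) did not differ beyond counting error. Of the 49-base windows of the Ccnd1 transcripts 20.3% also lie in LTO1, the overlapping neighbour, so that reads of the shared part could be counted to either gene.

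Ccnd2 (ENSMUSG00000000184, chr6:127125162-127152193, minus strand), a D-type cyclin that Myc is known to induce, stood at 434.5 CPM in Flag, 361.1 in CypD, 345.7 in the control, 335.8 with mastoparan and 213.6 with paraquat. Paraquat was lowest and Flag highest, and Flag was past counting error from every other library, at 1.2-fold (1.11 to 1.31) over CypD, 1.26-fold (1.15 to 1.37) over the control and 1.29-fold (1.19 to 1.41) over mastoparan. Between them, CypD and control differed by 1.04-fold (0.962 to 1.13), and CypD and mastoparan by 1.08-fold (0.988 to 1.17), both within counting error. None of its 49-base windows was shared with another gene.

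Ccnd3 (ENSMUSG00000034165, chr17:47505051-47599691, plus strand), a D-type cyclin found in many differentiating tissues, ran the other way. It stood at 226.9 CPM in Flag, 257.1 in CypD, 310.7 in the control, 317.9 with mastoparan and 316.7 with paraquat. The 3 day-8 libraries lay within counting error of each other and above both day-4 libraries, with all 6 pairs across days past counting error, from 1.21-fold (1.1 to 1.33) for control over CypD to 1.4-fold (1.26 to 1.56) for mastoparan over Flag. On the TPM scale the days overlapped, with 177.8 and 197.8 TPM at day 4 and 239.1, 236.8 and 196.2 TPM at day 8. The median TPM ratio of all genes in paraquat against control was -0.30 on the log2 scale, against -0.03 in scaled CPM, so TPM differences of the paraquat library carry that shift.

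The make-up of the D-type cyclins therefore differed between days. Of their summed TPM, Ccnd1 held 49.2% in Flag and 46.7% in CypD, and 36.7%, 37.1% and 37.9% in the control, mastoparan and paraquat libraries. Ccnd3 held 30.9% and 36.3% at day 4 and 46.3%, 46.6% and 50.6% at day 8. Ccnd1 was the most abundant D-type cyclin in both day-4 libraries and Ccnd3 in all 3 day-8 libraries. Ccnd2 held 19.9%, 16.9%, 17.0% and 16.2% in the Flag, CypD, control and mastoparan libraries and 11.5% with paraquat. These shares compare genes within a library, so a factor that scales a whole library does not move them. A trend with transcript length, given below for paraquat, can move them. With paraquat the lengths were 5701 bases for Ccnd2, 3740 for Ccnd1 and 1950 for Ccnd3. The part of length in the shares was not tested.

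**Figure D2:**
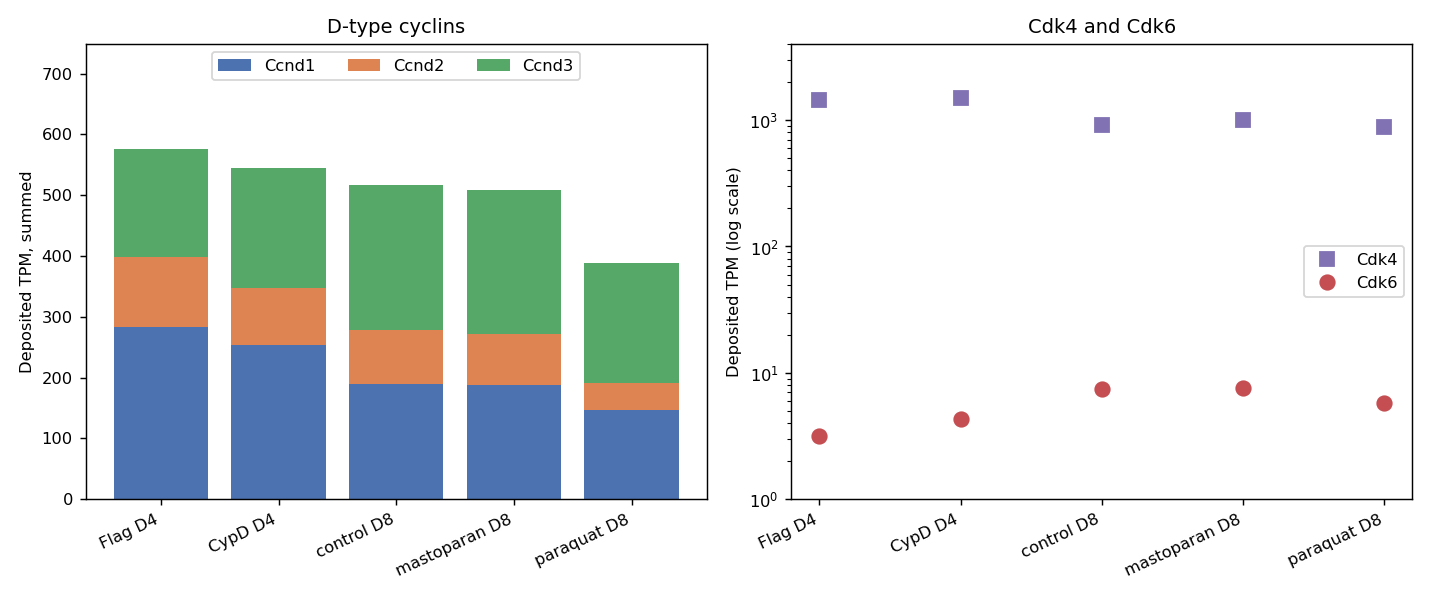
Left, deposited TPM of the 3 D-type cyclins stacked in each library; right, deposited TPM of Cdk4 and Cdk6 in each library on a log axis. The Ccnd3 segment is the largest of the 3 in each day-8 library and Ccnd1 the largest in each day-4 library, and Cdk4 lies above Cdk6 by 124 to 455 times.

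Cdk4 (ENSMUSG00000006728, chr10:127063534-127067920, plus strand), the main catalytic partner of the D-type cyclins in fibroblasts, stood at 700.1 CPM in Flag, 741.3 in CypD, 474.8 in the control, 560.0 with mastoparan and 582.7 with paraquat. Both day-4 libraries were above all 3 at day 8, and all 6 pairs across days were past counting error. Among the day-8 libraries the control was lowest, while mastoparan and paraquat differed by 1.04-fold (0.967 to 1.12). Of its 49-base windows 17.3% also lie in Tspan31, the neighbouring gene.

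Cdk6 (ENSMUSG00000040274, chr5:3341485-3531008, plus strand), the related kinase best known from blood cells, stood at 6.709 CPM in Flag, 9.266 in CypD, 15.57 in the control, 14.74 with mastoparan and 14.73 with paraquat. These rest on 17, 32, 48, 42 and 34 reads. All 3 day-8 libraries were above both day-4 libraries, but of the 6 pairs across days those of mastoparan and CypD (1.59-fold, 0.98 to 2.6) and of paraquat and CypD (1.59-fold, 0.952 to 2.66) did not pass counting error. The control was 2.32 times (1.31 to 4.3) the Flag library. In TPM Cdk4 was 455 and 346 times Cdk6 in Flag and CypD, and 124, 130 and 152 times in the control, mastoparan and paraquat libraries. The share of Cdk6 in the sum of both stayed below that of Cdk4 throughout, at 0.219% and 0.288% at day 4 and 0.8%, 0.762% and 0.652% at day 8.

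Ccne1 (ENSMUSG00000002068, chr7:38097984-38107534, minus strand), the cyclin that activates Cdk2 late in G1, stood at 69.45 CPM in Flag, 75.58 in CypD, 42.48 in the control, 48.42 with mastoparan and 61.52 with paraquat. Day 4 was above day 8 in every library, but the paraquat library lay within counting error of both CypD (1.23-fold lower, 0.998 to 1.52) and Flag (1.13-fold lower, 0.9 to 1.42). The control and mastoparan libraries were past counting error from both. CypD was 1.78 times (1.44 to 2.21) the control.

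Ccne2 (ENSMUSG00000028212, chr4:11191351-11204779, plus strand), the second E-type cyclin, stood at 23.68 CPM in Flag, 17.09 in CypD, 12.32 in the control, 12.28 with mastoparan and 7.365 with paraquat, from 60, 59, 38, 35 and 17 reads. Day 4 was again above day 8, although CypD lay within counting error of the control (1.39-fold, 0.907 to 2.14) and of mastoparan (1.39-fold, 0.901 to 2.18). Of its 49-base windows 14.4% also lie in Ints8. The E-type cyclins together held 69.49 and 66.26 TPM at day 4 and 37.28, 42.42 and 40.16 TPM at day 8. In TPM Ccne1 was 4.61, 6.66, 5.27, 5.07 and 12.4 times Ccne2 in the Flag, CypD, control, mastoparan and paraquat libraries. The highest ratio, with paraquat, rests on 17 reads of Ccne2, which lay within counting error of the control (1.67-fold lower, 0.922 to 3.16). No interval is given for the ratio. The length trend given below for paraquat can move it, as the lengths there were 2000 bases for Ccne1 and 2908 for Ccne2.

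Cdkn1b (ENSMUSG00000003031, chr6:134920401-134925513, plus strand), the p27 inhibitor, stood at 43.41 CPM in Flag, 44.02 in CypD, 61.62 in the control, 59.65 with mastoparan and 55.45 with paraquat. All 3 day-8 libraries were above day 4. Control and mastoparan were past counting error from both day-4 libraries, while paraquat was not, at 1.26-fold (0.988 to 1.6) over CypD and 1.28-fold (0.982 to 1.66) over Flag.

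Rb1 (ENSMUSG00000022105, chr14:73183673-73325822, minus strand), the retinoblastoma protein that holds E2f factors back, stood at 116.4 CPM in Flag, 100.5 in CypD, 137.2 in the control, 126.3 with mastoparan and 106.6 with paraquat. The days overlapped, because paraquat lay between the day-4 libraries; without the paraquat library both others at day 8 were above day 4. Of its 49-base windows 12.1% are shared, with Rcbtb2 and Lpar6, which lies inside Rb1. E2f1 (ENSMUSG00000027490, chr2:154559407-154569892, minus strand), an activating E2f factor and a target of its own family, stood at 38.67, 48.36, 43.13, 36.84 and 37.26 CPM in the same order. Its days overlapped too, and of its 10 pairs of libraries only CypD against mastoparan (1.31-fold, 1.02 to 1.69) was past counting error.

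The comparison of CypD with Flag at day 4 asks what expression of CypD does. None of the 10 genes was 1.5-fold apart, against 12.8% of the 13244 genes tested. Above a mean of 20 CPM, where 8 of the 10 genes lie, that share was 0.867%. Ccnd2 was 1.2 times lower with CypD (1.11 to 1.31), from 434.5 to 361.1 CPM, and Ccnd1 1.08 times lower (1.01 to 1.15). Ccnd3 was 1.13 times higher (1.02 to 1.26). These 3 of 10 had intervals that left out no difference, against 8.32% of all genes, and they are the 3 D-type cyclins, Ccnd1 and Ccnd2 lower and Ccnd3 higher. The other 7 lay within counting error, with E2f1 at 1.25-fold higher (0.969 to 1.62), Ccne2 at 1.39-fold lower (0.951 to 2.02) and Cdk4 at 1.06-fold higher (0.996 to 1.13). Summed with the reads of its neighbour Ints8, the log2 ratio of Ccne2 turned from -0.46 to 0.13. The median log2 ratio of the 10 was 0.05, and that of all genes -0.02. Ratios varied a little with transcript length, with a median of 0.06 for the 10 shortest of 40 length bins and -0.07 for the 10 longest. After removal of that trend the log2 ratio was -0.22 for Ccnd2, -0.04 for Ccnd1 and 0.17 for Ccnd3.

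Among the genes around the circuit, the largest log2 ratio in this pair was that of E2f7. It encodes a repressor that E2f1 induces, and had 16.51 CPM with CypD and 8.682 CPM with Flag, 1.9 times higher (1.14 to 3.27), from 57 and 22 reads. Tfdp1, the DP partner that E2f factors need to bind DNA, had 122.8 CPM with CypD and 166.5 CPM with Flag, 1.36 times lower (1.18 to 1.56). Of the 11 genes of the Rb, E2F and DP list 4 were above 0 and 7 below, with a median log2 ratio of -0.01. Of 35 genes that E2f factors are known to drive, mostly replication genes, 15 were above and 20 below, with a median of -0.01 and none past 1.5-fold. The 16 genes of G2 and mitosis had 10 above and 6 below, a median of 0.03 and none past 1.5-fold. The 6 other CDK inhibitors had a median of 0.05 and none past 1.5-fold. Of 16 genes of Cdk2, its activating kinase and cyclin turnover 9 were above 0, and Mnat1, an assembly factor of the Cdk-activating kinase, was 1.34 times higher (1.05 to 1.72). The 6 subunits of the DREAM and MuvB complexes, which repress cell-cycle genes in resting cells or activate mitotic ones, had a median of 0.16, with Mybl2 1.21 times lower (1.02 to 1.43) and Lin54 1.5 times higher within counting error (0.883 to 2.62).

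Mastoparan and paraquat were each compared with the same day-8 control, so their differences share that library. With mastoparan none of the 10 genes was 1.5-fold apart, against 13.3% of the 13651 genes tested. Above a mean of 20 CPM, where 8 of the 10 genes lie, that share was 0.633%. Cdk4 was 1.18 times higher (1.1 to 1.27), at 560.0 against 474.8 CPM. Only its interval, of the 10, left out no difference, against 7.27% of all genes and 8.88% above a mean of 20 CPM. Its log2 ratio was 0.24, 0.19 with the length trend removed and 0.11 in TPM. The other 9 lay within counting error, from E2f1 at 1.17-fold lower (0.9 to 1.53) to Ccne1 at 1.14-fold higher (0.891 to 1.46). The intervals of the abundant cyclins were narrow: Ccnd1 was at 1.03-fold (0.958 to 1.11), Ccnd2 at 0.971-fold (0.889 to 1.06) and Ccnd3 at 1.02-fold (0.933 to 1.12). Those of Ccne2 (0.611 to 1.62) and Cdk6 (0.61 to 1.46) left room for larger differences.

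The surrounding genes also lay close to the control. Of the 11 Rb, E2F and DP genes none was past 1.5-fold or past counting error, with a median log2 ratio of -0.06. The E2F targets had 23 genes above 0 and 12 below and a median of 0.08, beside 0.01 for all genes. Dck, a salvage kinase for deoxynucleosides, was the 1 target past 1.5-fold, 2.14 times lower (1.39 to 3.34) at 11.23 against 24.0 CPM. The mitotic genes had a median of 0.04, with Cenpa, the centromere histone, 1.26 times higher (1.07 to 1.48). Ambra1, an adaptor through which D-type cyclins are degraded, was 1.38 times lower (1.03 to 1.84) at 28.77 against 39.57 CPM. Cdk7, the Cdk-activating kinase, was 1.24 times higher (1.02 to 1.51), and so was Cul3 (1.03 to 1.48), a scaffold of ubiquitin ligases. The CDK inhibitors had a median of 0.01 and the DREAM and MuvB subunits one of 0.11, with none past 1.5-fold in either list.

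With paraquat 2 of the 10 genes were at least 1.5-fold lower than in the control, against 10.6% of all genes, and none was as much higher. Above a mean of 20 CPM, a level that Ccne2 does not reach, the share as much lower was 3.5%. Ccnd2 had 213.6 CPM against 345.7, 1.62 times lower (1.45 to 1.8), from 493 and 1066 reads. Ccne2 had 7.365 CPM against 12.32, 1.67 times lower, but from 17 and 38 reads its interval (0.922 to 3.16) held no difference. Rb1 was 1.29 times lower (1.1 to 1.51) at 106.6 against 137.2 CPM. Ccne1 was 1.45 times higher (1.13 to 1.85) at 61.52 against 42.48 CPM, and Cdk4 1.23 times higher (1.14 to 1.32) at 582.7 against 474.8 CPM. Ccnd1, Ccnd3, Cdk6, Cdkn1b and E2f1 lay within counting error, with Ccnd3 at 1.02-fold (0.925 to 1.12).

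The 4 of 10 genes past counting error compare with 21.0% of all genes. Counting error is easier to pass for abundant genes: above a mean of 20 CPM the share of genes was 29.4%, and 4 of the 8 members at that level passed. The median log2 ratio of the 10 genes was -0.11, and that of all genes -0.03. Ratios in this comparison moved with transcript length, with a median of 0.23 for the 10 shortest of 40 length bins and -0.19 for the 10 longest. With that trend removed the log2 ratio of Ccnd2 was -0.53 in place of -0.69, and that of Ccne1 0.48 in place of 0.53. Rb1 came to -0.22 in place of -0.36, and Cdk4 to -0.06 in place of 0.30. In TPM Cdk4 also came to -0.06, so that its direction against the control turns with the scale, and the direction of Cdk4 is given for scaled counts alone. Ccnd2 was lower on each scale used, with -0.98 in TPM. Counting the reads of overlapping neighbours together moved Ccne2 to -0.41, Rb1 to -0.17 and Cdk4 to 0.26. For Rb1 the reads of Rcbtb2 were added and those of Lpar6 were not. Ccnd1 moved from -0.08 to 0.10, since LTO1, named after its values were seen, had 279 reads against 169.

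**Figure D3:**
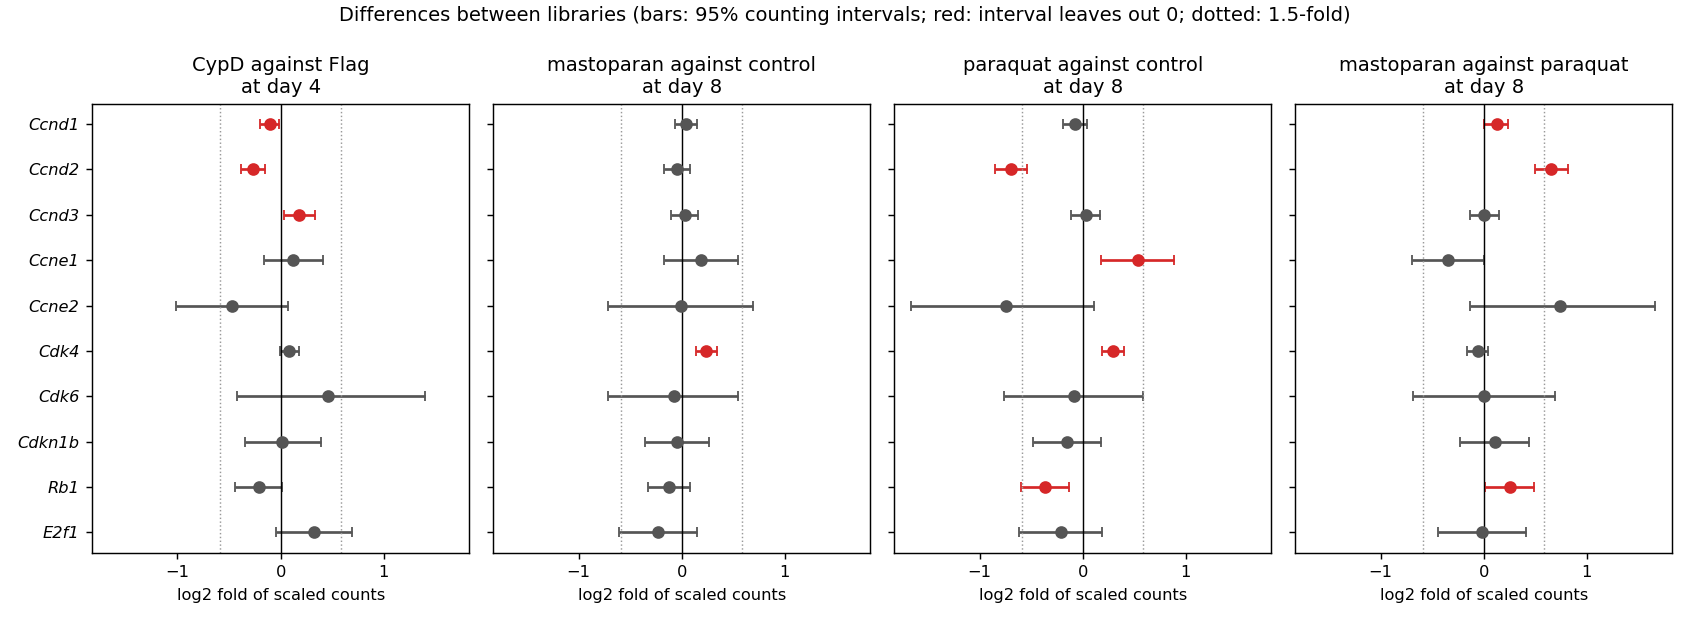
Log2 fold of scaled counts of each gene in the 4 comparisons; a point is the fold between 2 libraries, a bar its 95% counting interval, red marks intervals that leave out 0, and dotted lines stand at 1.5-fold. In both panels with paraquat the points of Ccnd2 and Ccne2 lie past the 1.5-fold line. In log2 ratio Ccnd2 stood at -0.69 and 0.65 and Ccne2 at -0.71 and 0.7, with Ccne2 intervals that hold 0. The CypD panel and that of mastoparan against control hold no point past the line.

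Of the 11 Rb, E2F and DP genes 8 were below 0 with paraquat, with a median log2 ratio of -0.51, and -0.35 with the length trend removed. At least 1.5-fold lower were 2 of 11, against the 10.6% of all genes given above, and 2 of 11 had an interval below no difference, against 9.77%. Tfdp1 (chr8:13338751-13378448, plus strand) had 29.03 CPM with paraquat and 77.83 CPM in the control, 2.68 times lower (2.04 to 3.57), from 67 and 240 reads. Its log2 ratio was -1.41, and -1.48 with the length trend removed, and none of its 49-base windows was shared with another gene. E2f8, a repressor of the E2F family, was 1.62 times lower, but from 12 and 26 reads with an interval that held no difference (0.79 to 3.53). E2f3, an activating E2f, was 1.5 times lower (0.996 to 2.29). The E2F targets had 17 above and 18 below with a median of -0.04, and the mitotic genes 5 above and 11 below with a median of -0.11. Beside these values, the sum of epithelial markers was 758.2 CPM with paraquat and 660.3 CPM in the control, and its part in them was not tested.

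Single genes in these lists lay further out, in both directions. Kif11, a spindle motor, was 1.81 times lower (1.37 to 2.4) and Plk1, a mitotic kinase, 1.47 times lower (1.15 to 1.88). Cenpa was 1.43 times higher (1.21 to 1.68). Among the targets Dck was 1.68 times lower (1.1 to 2.61) and Brca1, of DNA repair, 1.48 times lower (1.03 to 2.15), while Tyms, which makes thymidylate, was 1.48 times higher (1.18 to 1.86). Dck was thus lower than the shared control with both agents. With the length trend removed the log2 ratio of Kif11 was -0.63 in place of -0.84, and that of Cenpa 0.29 in place of 0.51. Brca1 came to -0.37 in place of -0.56 and Tyms to 0.32 in place of 0.56. Dck came to -0.61 in place of -0.73 and Plk1 to -0.53 in place of -0.55. Cdkn2a, which encodes p16 and p19Arf, was 1.31 times higher (1.17 to 1.46) at 266.9 against 204.3 CPM, and its log2 ratio of 0.38 came to 0.08 with the length trend removed. The CDK inhibitors had a median of 0.10, the Cdk2, activating and turnover genes one of 0.07, and the DREAM and MuvB subunits one of -0.07, with Lin52 1.62 times lower within counting error (0.79 to 3.53).

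The direct comparison of mastoparan with paraquat does not use the control. Of the 10 genes 2 were at least 1.5-fold higher with mastoparan, against 10.7% of all genes: Ccnd2 at 1.57-fold (1.41 to 1.76) and Ccne2 at 1.67-fold (0.909 to 3.17). Above a mean of 20 CPM, a level that Ccne2 does not reach, that share was 3.04%. Intervals lay above no difference for 3 of 10, against 8.89% of all genes: Ccnd2, Rb1 at 1.19-fold (1.01 to 1.4) and Ccnd1 at 1.09-fold (1.0 to 1.18). Above a mean of 20 CPM these were 3 of 8 members, against 12.0% of genes. With the length trend removed the log2 ratio of Rb1 was 0.12 in place of 0.24. The direction of Ccnd1 turned when its reads were summed with those of LTO1, from 0.12 to -0.07 in log2 ratio, and it was 0.02 with the length trend removed. Ccne1 was 1.27 times lower with mastoparan, with an interval that held no difference (0.998 to 1.62). Cdk4 differed by 1.04-fold (0.967 to 1.12) in scaled counts, within counting error, and its log2 ratio of -0.06 became 0.24 with the length trend removed and 0.18 in TPM. Tfdp1 was 2.5 times higher with mastoparan (1.89 to 3.35), and Rbl2, the Rb relative p130, 1.72 times higher (1.12 to 2.68). Kif11 at 1.68-fold (1.27 to 2.25) and Brca1 at 1.59-fold (1.1 to 2.3) were also higher. Cdkn2a was 1.32 times lower with mastoparan (1.18 to 1.48) and Birc5, an inhibitor of apoptosis that acts in mitosis, 1.29 times lower (1.08 to 1.54). The length trend ran from -0.20 in the 10 shortest bins to 0.15 in the 10 longest, and with it removed the log2 ratio of Ccnd2 was 0.50. In the same way Cdkn2a came to -0.16 in place of -0.4 and Birc5 to -0.13 in place of -0.36. Kif11 came to 0.59 in place of 0.74, Brca1 to 0.5 in place of 0.65 and Rbl2 to 0.63 in place of 0.76. Tfdp1 came to 1.39 in place of 1.31.

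Between the days, in 8 of the 10 genes all 3 day-8 libraries lay on the same side of both day-4 libraries, against 56.6% of the 13584 genes tested. Above a mean of 20 CPM, where 8 of the 10 genes lie, 61.5% of genes lay apart, 34.9% lower and 26.6% higher at day 8. Lower at day 8 were 5 of 10, against 28.1% of all genes. Their mean over the 2 day-4 libraries was higher than that over the 3 day-8 libraries by 1.91 times for Ccne2, 1.43 times for Ccne1, 1.4 times for Ccnd1, 1.34 times for Cdk4 and 1.33 times for Ccnd2. Higher at day 8 were 3 of 10, close to the 28.5% of all genes: Cdk6 by 1.88 times, Cdkn1b by 1.35 times and Ccnd3 by 1.3 times. Ccnd1, Ccnd2, both E-type cyclins and Cdk4 thus stood lower at day 8, and Ccnd3, Cdk6 and the inhibitor Cdkn1b higher. Only for Ccnd1, Ccnd3 and Cdk4 was every pair across days past counting error. Ccnd2 was lowest with paraquat. Its CypD library was within counting error of the control (1.04-fold, 0.962 to 1.13) and of mastoparan (1.08-fold, 0.988 to 1.17). The libraries at day 4 and day 8 also differ in the construct expressed and in treatment, and they are not replicates, so the day cannot be told apart from these. In bulk RNA a change in the share of cells in a phase and a change of RNA per cell cannot be told apart either. Without the paraquat library 9 of 10 lay apart, with Rb1 added on the higher side, against 67.3% of all genes. In TPM 7 of 10 did, without Ccnd3, against 53.0% of all genes.

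Genes downstream of the circuit stood lower at day 8 almost throughout. Of 35 E2F targets 32 were lower in all 3 day-8 libraries, against 28.1% of all genes, or 34.9% of genes above a mean of 20 CPM. Their median log2 ratio was -0.60, beside 0.01 for all genes. Mcm5, a subunit of the replicative helicase, had 247.4 and 240.9 CPM at day 4 and 117.1, 118.3 and 106.1 CPM at day 8. Rrm2, of ribonucleotide reductase, was 2.14 times lower and Tyms 2.08 times lower. All 16 genes of G2 and mitosis were lower, against the same shares, with a median of -0.66. Ccnb1, the mitotic cyclin, had 149.2 and 139.6 CPM at day 4 and 69.4, 60.7 and 53.72 CPM at day 8. Foxm1, which drives mitotic genes, was 1.86 times lower and Plk1 1.81 times lower. The sum of epithelial markers was higher at day 8, as given above, and its part in these differences was not tested.

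**Figure D4:**
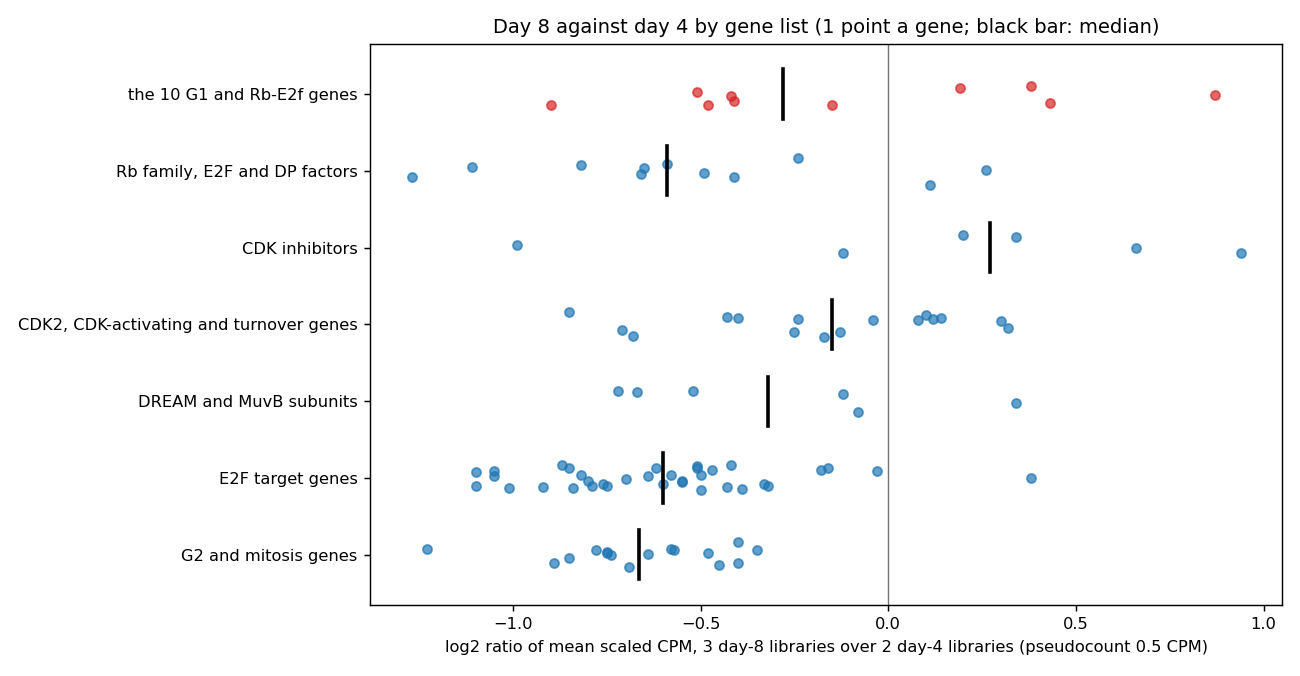
Log2 ratio of mean scaled CPM, 3 day-8 libraries over 2 day-4 libraries, for the 10 genes (red) and the genes of 6 lists (blue); a point is a gene and a black bar the median of its list. The medians of the E2F targets and of the G2 and mitosis genes lie at -0.60 and -0.66, that of the 10 genes at -0.28, and that of the CDK inhibitors at 0.27.

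Of the 11 Rb, E2F and DP genes 9 were lower at day 8 and 1 higher, against 28.1% and 28.5% of all genes. Their median was -0.59. Tfdp1 was 166.5 and 122.8 CPM at day 4 and 77.83, 72.64 and 29.03 CPM at day 8, a ratio of means of 2.42. E2f7 was 2.27 times lower and E2f8 1.81 times lower. E2f1 itself, with 38.67 and 48.36 CPM at day 4 and 36.84 to 43.13 CPM at day 8, overlapped between days. Of the 6 other CDK inhibitors 4 were higher and 1 lower, against 28.5% and 28.1% of all genes, with a median of 0.27. Cdkn2a was 111.7 and 122.2 CPM at day 4 and 204.3, 201.8 and 266.9 CPM at day 8. Cdkn2d (p19Ink4d) was 1.59 times higher. Cdkn2c (p18Ink4c) went the other way, with 22.49 and 21.72 CPM at day 4 and 9.729, 12.63 and 10.4 CPM at day 8.

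Of the 16 genes of Cdk2, its activation and cyclin turnover 7 were lower and 2 higher, against 28.1% and 28.5% of all genes. Above a mean of 20 CPM the share of genes lower was 34.9%. The median of the list was -0.15. Skp2, the ligase subunit that marks p27 for degradation, had 52.09 and 51.54 CPM at day 4 and 29.51, 29.83 and 25.99 CPM at day 8. Cul1, the scaffold of that ligase, was 1.64 times lower. Cdc25a, the phosphatase that activates Cdk2, was 1.61 times lower. Of the 6 DREAM and MuvB subunits 3 were lower and 1 higher, against the same shares of all genes. Lin54 was 1.7 times, Lin9 1.63 times and Mybl2 1.44 times lower at day 8.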

How the data were processed

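Per the submitters' processing notes, the authors used Bowtie2 2.2.5 with mm10. How genes were counted is not given in the sources used here. Deposited tables of each library hold expected counts, TPM and FPKM by gene, per the file headers. FPKM was not used. Total RNA was extracted with Trizol, per the labels' protocols.

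Deposited expected counts were rounded and scaled with TMM (edgeR 4.0.16, R 4.3.3). Folds are ratios of scaled counts with Clopper-Pearson 95% intervals. Log2 ratios use scaled CPM plus 0.5. Genes with a mean of 1 CPM over the libraries of a comparison's day (over all 5 between days) were tested, and a call is 1.5-fold. The length trend was removed with medians of 40 bins. Reads of amplified libraries are not independent molecules. Comparisons were CypD with Flag, and control, mastoparan and paraquat pairwise; the 5 libraries were set side by side by day. Symbols and coordinates are from GENCODE M21 (GRCm38), which named 28756 of 29267 IDs. Shared windows of 49 bases were counted over 82533 of the 84205 transcripts in the files. The code was tested on simulated data, with Python 3.11.15, numpy 2.4.6, scipy 1.17.1, pandas 2.3.3 and matplotlib 3.10.9.

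Named are all 10 genes, Ppif, and from each of 6 lists up to 3 genes with the largest absolute log2 ratio at a mean of at least 5 CPM; some of those, and a gene of the E2F target list, are not reported here. The genes and lists were chosen with earlier results of these data known. Alternatives were library totals, DESeq2 1.42.0 and upper-quartile factors, TPM, the length trend, pseudocounts of 0.1 and 2 CPM, a 2-fold threshold, and no filter or 20 CPM. Summing overlapping neighbours and leaving out the paraquat library were added after seeing the data.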

Additional observations from a re-analysis of the deposited data

How the results depend on the processing

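Of 300 log2 ratios of single genes under other settings 281 stayed inside the 95% counting interval of the reported fold and 19 did not; that interval is wide for Ccne2, whose ratio of mastoparan to paraquat ran from 0.23 with neighbours summed to 1.22 in TPM. For paraquat against control, 2 genes were past 1.5-fold. This count was 1 with the length trend removed (Ccne2, as Ccnd2 came to -0.53 in log2), 1 with overlapping neighbours summed (Ccnd2) and 0 at 2-fold. For mastoparan against paraquat the count was 2, and 1, 1 and 0 under the same settings. Under the scaling alternatives (library totals, DESeq2 and upper-quartile factors) both counts stayed at 2. TPM gave 3 in both. The counts for CypD against Flag and mastoparan against control were 0 under every setting run. The share of all genes past 1.5-fold depended on the filter: 12.8%, 13.3%, 19.8% and 19.5% in the 4 comparisons became 27.8%, 28.7%, 32.8% and 33.2% with no filter and 0.867%, 0.633%, 7.14% and 5.26% at 20 CPM. Library totals moved the median of all genes to -0.13 for paraquat against control. No paired analysis was possible because each group has 1 library. Depth limits Ccne2 and Cdk6, with 17 to 60 reads a library.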
